A study of Mus musculus with 18 samples.

Results

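The interferon-induced genes Ifit1, Ifit2, Ifit3 and Ifit3b and the neighbouring pair Rsad2 and Cmpk2 were followed through all 6 groups of the experiment. They are 6 of the 55414 genes in the deposited table and were chosen by symbol after differences of silenced from siNTC libraries had been measured in these data, so those differences are described here without a test. A minimum of 10 counts over all libraries left 21772 genes to be tested, the 6 among them. The libraries came from C2C12, a mouse myoblast cell line grown here into myotubes, which had received pooled siRNAs without a target (siNTC), against Erk3, the product of Mapk6 (siErk3), or against Mk5, the product of Mapkapk5 (siMk5). After 6 days of differentiation, each was kept for 16 h in serum-free medium that held either BSA alone or 0.5 mM palmitic acid bound to BSA (PA), so that the BSA groups also lacked serum and had been transfected. There were 3 libraries in each of the 6 groups, and the experiment asked how loss of either kinase alters the response of myotubes to lipid load. Nothing in the sources used here says that libraries of 1 group came from separate cultures, and p-values then measure only the spread between libraries.

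Ifit genes encode proteins built of tetratricopeptide repeats that bind RNA or other Ifit proteins and block translation of foreign RNA, and Ifit1 recognises caps that lack ribose methylation. Rsad2 encodes viperin, a radical SAM enzyme that turns CTP into a chain terminator of viral polymerases, and Cmpk2 encodes a mitochondrial kinase that phosphorylates CMP and related nucleotides. Transcription of such genes is typically switched on when a sensor of nucleic acid activates Irf3, or when interferon signalling activates factors that bind an interferon-stimulated response element (ISRE). Resting cells usually keep them low.

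The members lie in 2 places of the genome, given here on GRCm39 as in the count table. All Ifit members are read from the plus strand of chromosome 19, within 99.3 kb. Ifit2 spans 34528094 to 34553819, Ifit3 34560931 to 34566131, Ifit3b 34585370 to 34590801 and Ifit1 34618271 to 34627409. Rsad2 is read from the minus strand of chromosome 12 (26492745 to 26506451) and Cmpk2 from the plus strand (26519203 to 26529836), so the genes point away from each other, with 12752 bases between their starts. No exon of a member overlapped an exon of another gene on either strand. Ifit3 and Ifit3b are close copies. Their canonical transcripts in GENCODE were identical at 95.4% of aligned positions, and 15.1% of all stretches of 151 bases, the read length, in Ifit3 occurred unchanged in Ifit3b. Primary alignments were counted from a mapping quality of 3 upward, so a read pair that fits both copies could be counted for either, and the split of counts between them is uncertain.

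The sequence before the start of each gene is shown because it holds or lacks the letters to which ISRE-binding factors are known to attach. Each window runs from 250 to 31 bases before the RefSeq start, 5′ to 3′ along the gene. It was found once on the gene's own chromosome in GRCm39, and other chromosomes were not searched for it. Sequences are from RefSeq (table of build GRCm38.p6, all 6 members matched), and capitals mark the ISRE core, 2 copies of GAAA with any 2 bases between them, searched on both strands. Windows on chromosome 19 were chr19:34618039-34618258 for Ifit1, chr19:34560679-34560898 for Ifit3, chr19:34585107-34585326 for Ifit3b and chr19:34527844-34528063 for Ifit2, all on the plus strand. On chromosome 12 they were chr12:26506482-26506701 on the minus strand for Rsad2 and chr12:26518964-26519183 on the plus strand for Cmpk2.
Ifit1: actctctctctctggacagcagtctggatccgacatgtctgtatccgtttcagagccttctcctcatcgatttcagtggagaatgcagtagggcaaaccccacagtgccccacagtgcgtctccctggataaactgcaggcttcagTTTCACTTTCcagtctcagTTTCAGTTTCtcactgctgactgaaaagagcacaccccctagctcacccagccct
Ifit3: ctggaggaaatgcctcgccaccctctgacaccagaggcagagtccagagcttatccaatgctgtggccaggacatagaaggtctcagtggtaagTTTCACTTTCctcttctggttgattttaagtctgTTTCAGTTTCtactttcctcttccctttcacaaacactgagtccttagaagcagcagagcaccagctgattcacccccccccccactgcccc
Ifit3b: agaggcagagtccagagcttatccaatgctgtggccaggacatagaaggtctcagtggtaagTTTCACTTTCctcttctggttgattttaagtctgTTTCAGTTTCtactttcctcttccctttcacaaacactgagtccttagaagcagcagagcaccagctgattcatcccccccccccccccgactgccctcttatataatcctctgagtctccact
Rsad2: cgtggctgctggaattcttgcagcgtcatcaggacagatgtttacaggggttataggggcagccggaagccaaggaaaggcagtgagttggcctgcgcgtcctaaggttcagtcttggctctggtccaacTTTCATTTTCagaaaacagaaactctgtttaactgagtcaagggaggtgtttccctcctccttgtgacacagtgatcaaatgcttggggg
Ifit2: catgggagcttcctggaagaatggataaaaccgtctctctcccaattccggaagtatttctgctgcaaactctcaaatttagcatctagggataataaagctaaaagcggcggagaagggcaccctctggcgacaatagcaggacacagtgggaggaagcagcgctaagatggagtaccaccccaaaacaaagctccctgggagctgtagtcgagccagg
Cmpk2: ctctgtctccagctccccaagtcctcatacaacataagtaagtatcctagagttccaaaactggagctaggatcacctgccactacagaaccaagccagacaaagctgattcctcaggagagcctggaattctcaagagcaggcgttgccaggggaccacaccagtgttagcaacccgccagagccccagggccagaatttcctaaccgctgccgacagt

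The core was present in 4 of the 6 members, always on the strand opposite to the gene. Ifit1, Ifit3 and Ifit3b each held 2 matches with the same letters, TTTCACTTTC followed by TTTCAGTTTC. In Ifit1 these began 104 and 85 bases before the start, in Ifit3 156 and 122 bases, and in Ifit3b 188 and 154 bases. Rsad2 held 1 match, TTTCATTTTC, which began 120 bases before its start. No match was found in the windows of Ifit2, which has a further RefSeq start whose window also held none, or Cmpk2. For comparison, 2.63% of 32851 windows of the same length in the table held the core. A match of letters is a description of the sequence and not a measured binding site.

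The libraries held between 13041979 and 28496727 counts. Mapk6 was 132 ± 3.18 CPM (the count relative to the library total after TMM scaling) in siNTC BSA and 57.4 ± 2.64 in siErk3 BSA, and 232 ± 14.7 in siNTC PA and 120 ± 11.4 in siErk3 PA (SD, n = 3 each). Mapkapk5, at 27 to 86 counts a library, was 2.46 ± 0.126 CPM in siNTC BSA against 1.63 ± 0.422 in siMk5 BSA, and 3.24 ± 0.702 in siNTC PA against 2.31 ± 0.131 in siMk5 PA, with no overlap between siMk5 and siNTC libraries in either medium, as for 12.3% of genes in BSA and 12% in PA. The siErk3 BSA libraries, at 1.98 to 2.18 CPM of Mapkapk5, also lay below those of siNTC BSA, at 2.32 to 2.54. Myotube markers summed to between 12779.7 and 17233.6 CPM with all 12 genes present. Of 8 macrophage and leukocyte markers, Adgre1 had no counts and the sum stayed between 1.72 and 2.75 CPM, and the sum of 4 endothelial markers stayed between 0.333 and 1.39 CPM. The 18S ribosomal RNA took 1.497% to 12.9% of counts.

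**Figure D1:**
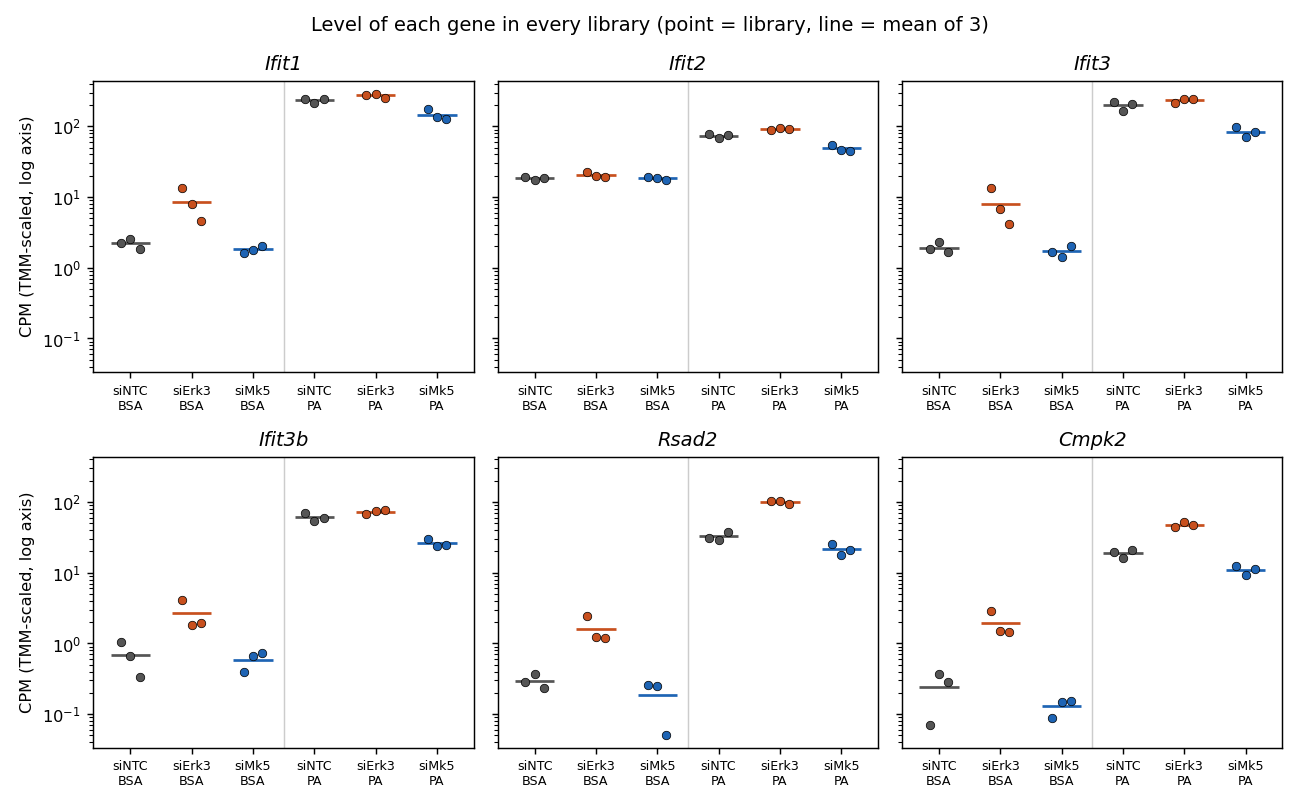
Level of each gene in CPM on a log axis in all 18 libraries, by siRNA and medium, with points for libraries and a line for the mean of 3. Every PA library lies above every BSA library for each gene, Ifit2 starts far higher than the others, and in PA the siErk3 libraries of Rsad2 and Cmpk2 stand above those of siNTC.

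In siNTC myotubes kept in BSA, Rsad2, Cmpk2 and Ifit3b had 1 to 16 counts a library, near the lower limit of counting. Ifit1 and Ifit3 had 26 to 61 counts a library, and Ifit2 had 276 to 420. Per length, as CPM per kilobase of exon, Ifit2 led at 4.73 ± 0.246, followed by Ifit3 at 1.10 ± 0.189, Ifit1 at 0.833 ± 0.132 and Ifit3b at 0.342 ± 0.181 (SD, n = 3). Rsad2 at 0.0686 ± 0.0163 and Cmpk2 at 0.0584 ± 0.0376 came last and could not be ranked against each other (SD, n = 3). PA changed the order. In siNTC PA, Ifit3 stood at 113 ± 16.9 and Ifit1 at 88.5 ± 6.46, then Ifit3b at 30.4 ± 4.18, with Ifit2 behind them at 18.8 ± 1.24, ahead of Rsad2 at 7.52 ± 0.988 and Cmpk2 at 4.53 ± 0.590 (CPM per kilobase, SD, n = 3).

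PA against BSA under siNTC gives the response of myotubes in which neither kinase was silenced. All 6 members rose. In this comparison 15.5% of genes tested were called higher, at an FDR below 0.05 and a fold change above 1.3. The members other than Ifit2 rose by similar amounts, with log2 fold changes from 6.10 to 6.72, and ranked from 23 to 35 by log2 fold change among the 21772 genes. Ifit2, which had the highest level in BSA, rose less and ranked 933.

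Ifit1, the cap-binding member, measured 2.25, 2.54 and 1.84 CPM in the siNTC BSA libraries and 242, 216 and 247 in siNTC PA. The groups lay far apart, with a log2 fold change of 6.72 (SE 0.20, edgeR FDR = 1.46e-22). Ifit3, an Ifit protein that partners with other family members, measured 1.83, 2.29 and 1.66 CPM in siNTC BSA and 218, 163 and 210 in siNTC PA (log2 fold change 6.65, SE 0.23, edgeR FDR = 8.06e-21). Its copy Ifit3b stood at 1.05, 0.667 and 0.331 CPM in siNTC BSA and at 69.9, 53.4 and 59.2 in siNTC PA (log2 fold change 6.56, SE 0.21, edgeR FDR = 1.36e-21). The copies thus kept nearly the same fold, although Ifit3b was lower throughout. Fitted as 1 gene with summed counts, Ifit3 and Ifit3b had a log2 fold change of 6.63 (SE 0.22).

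Rsad2 had only 4, 9 and 5 counts in the siNTC BSA libraries, or 0.281, 0.375 and 0.236 CPM, against 30.8, 29.5 and 37.5 CPM in siNTC PA (log2 fold change 6.72, SE 0.23, edgeR FDR = 8.06e-21). Cmpk2 had 1, 9 and 6 counts in siNTC BSA, or 0.0702, 0.375 and 0.284 CPM, against 19.4, 16.2 and 21.02 CPM in siNTC PA (log2 fold change 6.10, SE 0.25, edgeR FDR = 4.52e-19). With so few counts in BSA the size of the fold is loose. From summed counts Rsad2 rose 107-fold (exact 95% interval 67.5 to 181) and Cmpk2 69.8-fold (42.8 to 122), intervals that cover counting error only. For Ifit1, with 132 counts in BSA, the same calculation gave 106-fold (89.0 to 126).

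Ifit2, whose protein binds RNA as part of Ifit complexes, measured 19.4, 17.5 and 18.8 CPM in siNTC BSA and 77.8, 68.4 and 75.2 in siNTC PA. All PA libraries were higher, by a log2 fold change of 2.00 (SE 0.08, edgeR FDR = 8.13e-20), which is 3.99-fold. Its mean stayed between 18.4 and 20.6 CPM in the 3 BSA groups.

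The same comparison under siErk3, where 15.8% of genes were called higher, again found all 6 members raised. For all members but Ifit2, the BSA libraries started higher than in siNTC, with larger SDs in CPM. Ifit1 measured 13.2, 7.93 and 4.62 CPM in siErk3 BSA and 281, 284 and 255 in siErk3 PA (log2 fold change 5.02, SE 0.16, edgeR FDR = 4.55e-22). Rsad2 measured 2.45, 1.22 and 1.18 CPM in siErk3 BSA and 103.5, 104.995 and 95.3 in siErk3 PA (log2 fold change 5.98, SE 0.15, edgeR FDR = 9.65e-25). Among the members Rsad2 showed the largest PA response under siErk3. Ifit3, Ifit3b and Cmpk2 rose by log2 fold changes of 4.89, 4.80 and 4.64 and Ifit2 by 2.17, at edgeR FDRs from 4.11e-22 to 2.79e-20.

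Under siMk5, where 15.1% of genes were called higher, PA also raised all 6 members. Ifit1 measured 1.61, 1.81 and 2.06 CPM in siMk5 BSA and 174, 134 and 128 in siMk5 PA (log2 fold change 6.32, SE 0.21, edgeR FDR = 2.18e-21). Rsad2, with 6, 5 and 1 counts in siMk5 BSA, rose by a log2 fold change of 6.78 (SE 0.26, edgeR FDR = 2.32e-19), and Cmpk2, with 2, 3 and 3 counts, by 6.35 (SE 0.31, edgeR FDR = 5.35e-17). From summed counts the Cmpk2 fold under siMk5 had an exact 95% interval from 43.0 to 198. Ifit3 and Ifit3b rose by 5.61 and 5.49 and Ifit2 by 1.41, or 2.66-fold. In each of the 3 siRNA groups, no PA library overlapped a BSA library for any member, as was also true of 51.3% of genes under siNTC, 53.9% under siErk3 and 51.9% under siMk5.

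**Figure D2:**
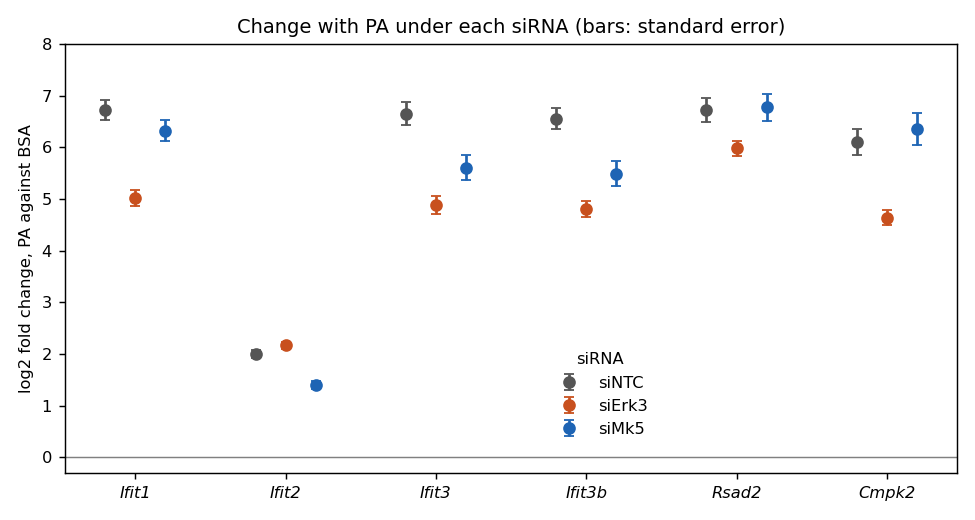
Log2 fold change of PA against BSA for each gene under siNTC, siErk3 and siMk5, with bars for the standard error. Ifit2 lies between 1.41 and 2.17 and the other genes between 4.64 and 6.78.

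How far the PA response of a silenced group lay from that of siNTC was estimated as an interaction. It is the silencing difference in PA minus that in BSA, values known when the members were chosen, so the estimates are a description without p-values and nothing is read from the calls. With siErk3, Ifit1 was the member past the call thresholds, where 0.0367% of genes were. Its estimate was -1.70 on the log2 scale (SE 0.31), and -1.26 without library 1 of siErk3 BSA. The call was lost in 8 of 12 fits that each left out 1 library. For Ifit3, Ifit3b and Cmpk2 the estimates were -1.77 (SE 0.37), -1.76 (SE 0.38) and -1.46 (SE 0.45). Rsad2 gave -0.74 (SE 0.48) and Ifit2 0.17 (SE 0.10).

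With siMk5, Ifit2 was the member past the thresholds, where 0.211% of genes were, with an estimate of -0.59 (SE 0.11). Ifit3 and Ifit3b had larger estimates with wider errors, -1.05 (SE 0.50) and -1.06 (SE 0.55). Ifit1 gave -0.40 (SE 0.42), Rsad2 0.06 (SE 0.60) and Cmpk2 0.25 (SE 0.72).

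The levels with silencing against siNTC in one medium are given as a description, without p-values, since results of these comparisons were known when the members were named. Counts of members past the call thresholds stand beside the share of all genes, and nothing is read from them. The siErk3 and siMk5 comparisons share the siNTC libraries of their medium. In BSA, siErk3 raised the level of 5 members above siNTC with no overlap between libraries, and these 5 were also the members called higher, against 0.588% of all genes called higher and 17.4% of genes without overlap in either direction. The log2 fold changes were 1.92 (SE 0.28) for Ifit1, 2.01 (SE 0.33) for Ifit3, 2.02 (SE 0.36) for Ifit3b, 2.37 (SE 0.43) for Rsad2 and 2.81 (SE 0.39) for Cmpk2. Ifit2 differed by 0.15 (SE 0.08), and its siErk3 BSA libraries, at 22.6, 19.99 and 19.1 CPM, overlapped those of siNTC.

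The siErk3 BSA libraries differed among themselves. Library 1 was the highest for all 6 members. Ifit3, for instance, measured 13.2, 6.71 and 4.15 CPM, and Cmpk2 2.87, 1.52 and 1.43 CPM. Without library 1 the log2 fold changes were 1.48 for Ifit1, 1.46 for Ifit3, 1.98 for Rsad2 and 2.44 for Cmpk2. Both remaining libraries of these genes were still above every siNTC BSA library. The 18S share ranged from 1.497% to 2.96% in siErk3 BSA and from 2.56% to 7.17% in siNTC BSA, and its part in these differences was not tested.

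In PA the members separated. Rsad2 measured 103.5, 104.995 and 95.3 CPM with siErk3 against 30.8, 29.5 and 37.5 with siNTC, a log2 fold change of 1.64 (SE 0.10) or 3.11-fold. Cmpk2 measured 45.1, 51.9 and 46.7 CPM with siErk3 against 19.4, 16.2 and 21.02 with siNTC, a log2 fold change of 1.35 (SE 0.10) or 2.55-fold. These were the members called higher, 2 of 6, against 0.432% of genes called higher. The Ifit genes lay within 1.25-fold of siNTC. Ifit2 was highest at a log2 fold change of 0.32 (SE 0.06), with 89.0, 95.9 and 91.8 CPM against 77.8, 68.4 and 75.2. Ifit3b followed at 0.27 (SE 0.10), then Ifit3 at 0.24 (SE 0.13) and Ifit1 at 0.22 (SE 0.11). The libraries of Ifit3 and Ifit3b overlapped between siErk3 PA and siNTC PA, and those of the other 4 members did not, against 12.1% of genes without overlap.

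With siMk5 the levels in PA were lower for all 6 members, with no overlap with siNTC PA, against 0.491% of genes called lower and 12% of genes without overlap. The log2 fold changes were -1.24 (SE 0.14) for Ifit3 and -1.21 (SE 0.11) for Ifit3b, which stood at 98.3, 69.9 and 81.9 CPM and at 30.2, 23.7 and 24.97 CPM. Cmpk2 differed by -0.78 (SE 0.12), Ifit1 by -0.69 (SE 0.12), Ifit2 by -0.59 (SE 0.07) and Rsad2 by -0.58 (SE 0.11). Library 1 of siMk5 PA was the highest of its group for all 6 members. DESeq2 called 4 of the 6 lower. In BSA no member was called with siMk5 by edgeR, by DESeq2 or at an unadjusted p below 0.05, where 0.0643% of genes were called, and no member was without overlap, against 12.3% of genes. The estimates ran from -1.03 (SE 0.76) for Cmpk2 to -0.00 (SE 0.09) for Ifit2. The SEs of Rsad2 and Cmpk2 there exceed 0.70.

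**Figure D3:**
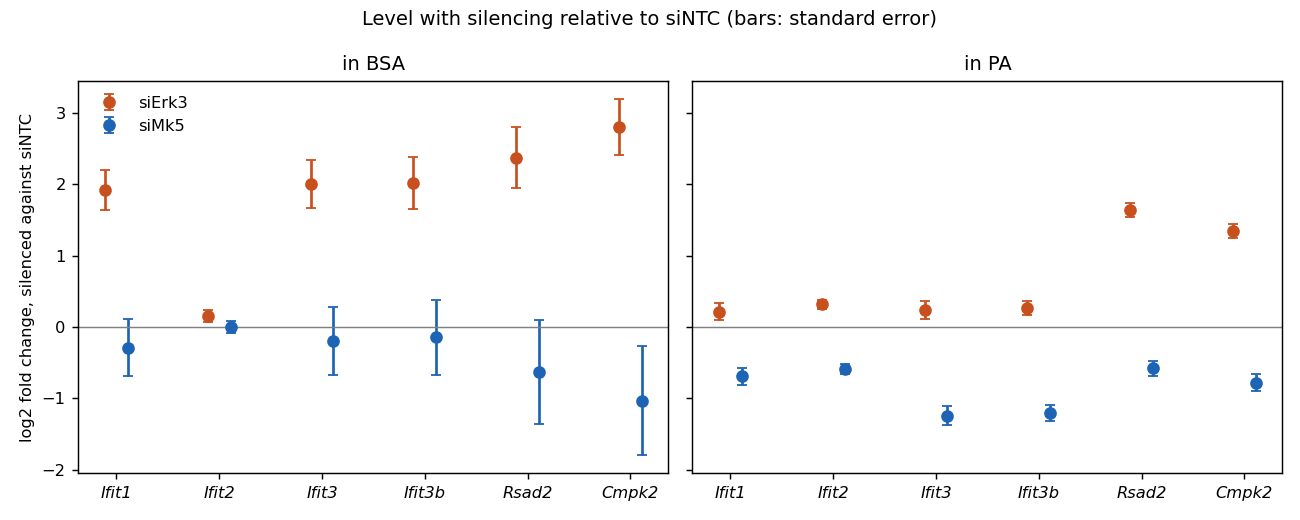
Log2 fold change of siErk3 and of siMk5 against siNTC for each gene in BSA and in PA, with bars for the standard error. In BSA siErk3 lies between 1.92 and 2.81 for all genes but Ifit2, and in PA at 1.64 and 1.35 for Rsad2 and Cmpk2 and at 0.32 or less for the Ifit genes.

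The order of the 6 group means was the same for every member, with siErk3 PA highest, then siNTC PA, siMk5 PA, siErk3 BSA, siNTC BSA and siMk5 BSA. Neighbours in this order were not always distinct. The siNTC BSA and siMk5 BSA libraries overlapped for all 6 members, siErk3 PA and siNTC PA overlapped for Ifit3 and Ifit3b, and siErk3 BSA and siNTC BSA for Ifit2.

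Ratios of 2 members within a library do not depend on how libraries are scaled, and were used to compare Rsad2 and Cmpk2 with the Ifit genes. They were computed per length from counts plus 0.5, for 15 pairs, and PA was tested against BSA by a two-sided exact permutation of the medium within each siRNA. Averaged over the siRNAs, 9 of the 15 ratios differed between PA and BSA at an adjusted p below 0.05. The 5 pairs with Ifit2 shifted most. Relative to Ifit2, Rsad2 rose by 4.68 on the log2 scale, Ifit1 by 4.19 and Cmpk2 by 3.87, and Ifit2 fell by 3.90 relative to Ifit3 and fell by 3.78 relative to Ifit3b (adjusted exact permutation p = 0.00075 for each, from p = 0.00025, the smallest the 8000 assignments can give). All 9 libraries in PA differed from all 9 in BSA in the Ifit1/Ifit2 ratio, with BSA values of -2.99 to -0.21 and PA values of 2.04 to 2.28.

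Of the 10 ratios without Ifit2, 4 passed. The ratio of Ifit3 to its copy Ifit3b averaged 1.79, 1.73 and 1.72 in siNTC, siErk3 and siMk5 with BSA and 1.89, 1.86 and 1.85 with PA, a mean difference of 0.12 (log2, adjusted exact permutation p = 0.595). Cmpk2 differed relative to Ifit3 by -0.03 and to Ifit3b by 0.09 on average (adjusted exact permutation p = 0.882 and 0.865). These averages mix opposite shifts, negative in siNTC and siErk3 and positive in siMk5, from -0.33 to 0.71. They also lean on library 1 of siNTC BSA, as Cmpk2 had 1, 9 and 6 counts in that group. Its log2 ratios to Ifit3 there were -5.40, -3.80 and -3.70. The averages therefore do not show a constant ratio. Rsad2 rose relative to Ifit3 by 0.77 and to Ifit3b by 0.90 on average (adjusted exact permutation p = 0.00625 and 0.0139). The differences were 0.01 and 0.11 in siNTC and above 1 in siErk3 and siMk5. These averages thus rest on the silenced groups, whose differences from siNTC were known when the members were chosen. Their p-values are therefore not independent evidence of a PA effect. The siMk5 differences lean on library 3 of siMk5 BSA, as Rsad2 had 6, 5 and 1 counts in that group. Its log2 ratios there were -3.88, -3.69 and -6.07 to Ifit3 and -1.66, -2.41 and -4.39 to Ifit3b. Ifit1 rose relative to Ifit3 by 0.29 (adjusted exact permutation p = 0.0253), with 0.06 in siNTC, 0.10 in siErk3 and 0.70 in siMk5. This average rests mostly on siMk5, so the same limit holds for its p-value. Rsad2 rose relative to Cmpk2 by 0.80 (adjusted exact permutation p = 0.0304), with 0.34 in siNTC, 1.35 in siErk3 and 0.71 in siMk5, a call lost in 14 of 18 fits without 1 library. In BSA each gene of this pair had 1 to 9 counts a library in siNTC and siMk5 and 29 to 68 in siErk3.

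In PA, where all members have ample counts, the ratios of the chromosome 12 genes to the Ifit genes show the siErk3 difference within libraries, again as a description. The log2 ratio of Rsad2 to Ifit1 was -2.15, -2.14 and -2.13 in siErk3 PA and -3.68, -3.57 and -3.43 in siNTC PA, 2.68-fold higher. For Cmpk2 to Ifit1 it was -3.29, -3.10 and -3.10 in siErk3 PA and -4.29, -4.38 and -4.20 in siNTC PA, 2.19-fold higher. All 8 ratios of Rsad2 or Cmpk2 to an Ifit gene were apart from siNTC, by 1.03 to 1.42 on the log2 scale. In siErk3 BSA, the same 8 ratios were higher by 0.32 to 2.85, and 6 of them lay apart.

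With siMk5 in PA another split appeared. Ratios to Ifit3 and Ifit3b were higher than with siNTC for each of the other members. Ifit1 to Ifit3 measured 0.22, 0.34 and 0.04 against -0.45, -0.21 and -0.37 with siNTC, and Ifit2 to Ifit3b -0.10, -0.00 and -0.12 against -0.82, -0.62 and -0.63. The ratios of Rsad2 and Cmpk2 to Ifit1 and Ifit2 overlapped with those of siNTC PA. Ifit3 and Ifit3b thus lay furthest below siNTC in siMk5 PA. Their ratio to each other differed from siNTC PA by -0.03, though the split of counts between these copies is uncertain.

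**Figure D4:**
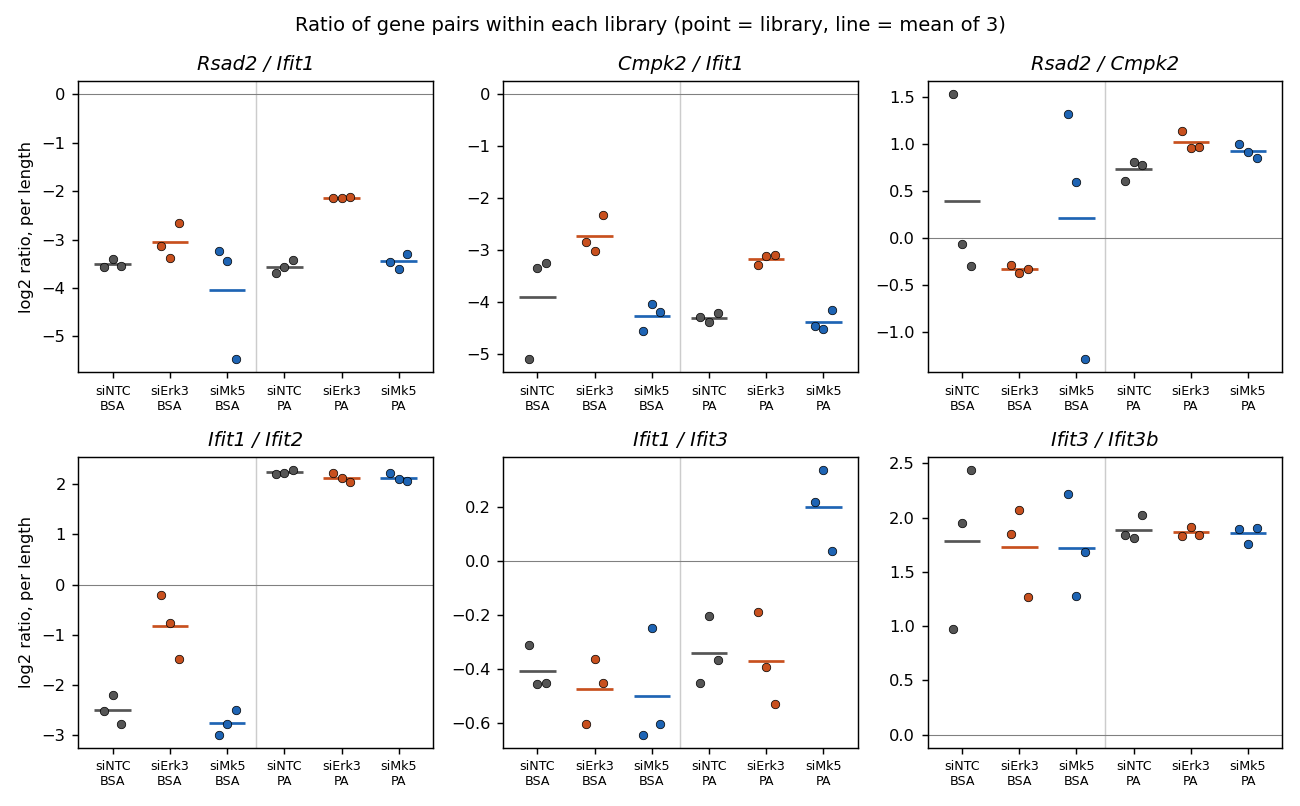
Log2 ratio per length of 6 gene pairs within each library, with points for libraries and a line for the mean of 3. Rsad2/Ifit1 stands near -2.14 in siErk3 PA against -3.56 in siNTC PA, Ifit1/Ifit2 turns from below 0 in BSA to above 2 in PA, and Ifit3/Ifit3b stays between 0.97 and 2.44.

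Other genes of the pathway were counted from lists written with earlier results known. Of 33 other interferon-stimulated effectors, 33 rose with PA in siNTC, 32 in siErk3 and 33 in siMk5. Of all genes tested, 15.5%, 15.8% and 15.1% rose in these comparisons. The effectors had a median log2 fold change of 3.403 in siNTC against -0.03 over all genes tested. The median of the 6 members was 6.61. Cxcl10, a chemokine, rose by 7.34 and Oasl1, an oligoadenylate synthetase relative that represses Irf7 translation, by 7.31. Ifi27 rose least, by 0.64. Among 11 nucleic acid sensors and adaptors tested, 8 rose in siNTC and none fell, led by Ifih1, the sensor MDA5, at 3.92 and the sensor Zbp1 at 3.91. The adaptors Mavs (0.11) and Sting1 (0.08) did not pass the test.

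Of 9 Irf and Stat factors and kinases tested, 5 rose with PA in siNTC and 1 fell, where 15.5% of all genes rose and 15.1% fell. Irf7 rose by 4.01, Stat2 by 2.32 and Irf9 by 2.16, all subunits or amplifiers of the interferon response, while the kinase gene Ikbke fell by 0.54. Of 9 receptor and Jak genes, 2 rose in siNTC, where 15.5% of all genes did, Ifnar1 by 0.45 and Ifnar2 by 0.47, the chains of the type I interferon receptor. In siErk3, 1 of the 9 rose, where 15.8% of all genes did, and 1 fell. None passed in siMk5, where 15.1% of all genes rose. Yet further genes had edgeR FDRs below 0.05, namely Ifnar1 (0.36) and Tyk2 (0.19) in siErk3. In siMk5 these were Ifnar1 (0.35), Ifnar2 (0.37), Tyk2 (0.27) and Ifngr1 (-0.34). In siNTC they were Jak2 (0.21), Tyk2 (0.20) and Ifngr1 (-0.31). Their folds were under 1.3. Of 6 feedback inhibitors, Usp18 (5.82), Isg15 (5.10) and Socs1 (1.11) rose in siNTC and Pias1 fell by 0.50. The shares of all genes there were 15.5% called higher and 15.1% called lower. With siErk3 in BSA 22 of the 33 effectors were called higher against 0.588% of all genes, with siErk3 in PA 18 against 0.432%, and with siMk5 in PA 29 were called lower against 0.491%, comparisons that also share the siNTC libraries.

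Transcripts of interferons themselves were scarce. Of 21 ligand genes 14 had no counts, and Ifnb1, the only one tested, had 0 counts in all 9 BSA libraries and 1 to 7 in each PA library. In siNTC PA these were 1, 2 and 4 counts, in siErk3 PA 5, 7 and 5, and in siMk5 PA 1, 1 and 2. Muscle markers moved with PA as well. Of 12 myotube markers 6 fell in siNTC and of 6 markers of proliferating myoblasts 5 fell, where 15.1% of all genes were called lower. With siErk3, 3 of the 12 myotube markers were called higher in BSA and 2 in PA, against 0.588% and 0.432% of genes. Their part in the changes of the members was not tested.

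**Figure D5:**
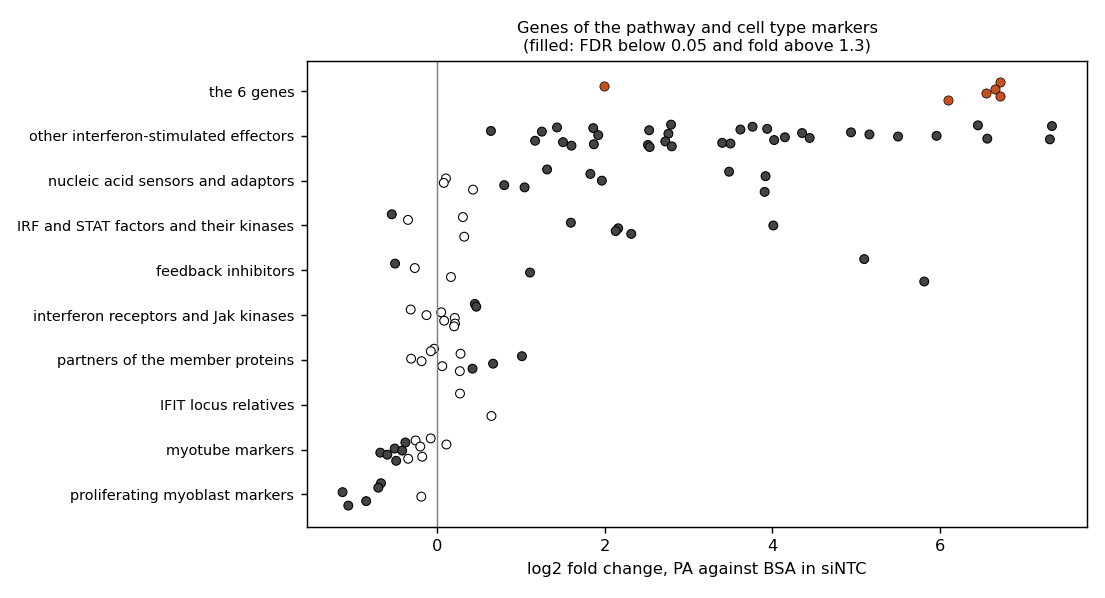
Log2 fold change of PA against BSA in siNTC for the 6 genes, for the tested genes of the pathway lists and for muscle markers, 1 point a gene, filled where called. All effectors and all 6 genes lie above 0, while 6 of 12 myotube markers and 5 of 6 markers of proliferating myoblasts fell.

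The genes most alike in pattern were named by the Pearson correlation of log2 CPM over the 18 libraries, among genes with a mean of at least 1 CPM. These libraries share the PA shift, which alone gives high values, so correlations within the 9 BSA and the 9 PA libraries are given beside it, without a test. Isg15, a ubiquitin-like modifier, was closest to Ifit1 (r = 0.995, 0.989 in BSA, 0.978 in PA), Ifit3 (0.999, 0.987, 0.988) and Ifit3b (0.995, 0.920, 0.982). Closest to Rsad2 was Mx1, a dynamin-like restriction factor (0.991, 0.909, 0.935), and to Cmpk2 Apol9a (0.991, 0.972, 0.961). Ifit2 was closest to Tor3a (0.995), where the correlation was 0.493 in BSA and 0.975 in PA. Between members, Rsad2 and Cmpk2 had r = 0.990 over the 9 PA libraries, and Ifit3 and Ifit3b 0.994. Rsad2 had 0.834 with Ifit1, 0.799 with Ifit3 and 0.895 with Ifit2 there, and Cmpk2 had 0.938 with Ifit2. Over the 9 BSA libraries Rsad2 and Cmpk2 had 0.913, and Ifit3 and Ifit3b 0.915. Rsad2 had 0.915 with Ifit1, 0.896 with Ifit3 and 0.808 with Ifit2 in BSA, and Cmpk2 had 0.939 with Ifit1 and 0.654 with Ifit2. The PA values include the siErk3 difference known when the members were chosen.

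The 3 tested genes nearest on each side of the Ifit genes were Lipa, Gm26902 and Ch25h before and Slc16a12, Pank1 and Kif20b after. With PA in siNTC, Ch25h, an interferon-inducible cholesterol hydroxylase, rose by 3.50 on the log2 scale (SE 0.12, edgeR FDR = 3.99e-21) and the lysosomal lipase Lipa by 0.67 (SE 0.06, edgeR FDR = 1.37e-10). Kif20b, a kinesin, fell by 0.90, and the other 3 did not pass. Within the locus, the relatives Ifit1bl1 and Ifit1bl2 on the minus strand, which averaged 0.510 and 0.485 CPM in siNTC PA, did not pass in siNTC or siMk5. With siErk3, PA raised Ifit1bl2 by 1.81 (SE 0.44, edgeR FDR = 0.00102). Around Rsad2 and Cmpk2 the flanking tested genes lie further off, 292 kb and more, and of these Sox11 fell by 0.67 (edgeR FDR = 2.50e-13) and the 5 others did not pass.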

How the data were processed

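RNA-seq data of 18 libraries of C2C12 myotubes in 6 groups of 3 were used, with groups and replicate numbers from the sample labels. The authors deposited counts of read pairs per gene, without normalization. Per the methods, reads were trimmed with TrimGalore and cutadapt, aligned with STAR to GRCm39 and marked for duplicates, which stayed in the data. The labels' processing notes name mm10, whereas the header of the count table names GRCm39. Per that header, featureCounts 2.0.0 counted primary pairs by Ensembl release 105, with strand setting 2 and a mapping quality of at least 3. The authors also deposited a table in log2 units, of scaled counts plus 1, which served only as a check. Columns without a sample numbered 0.

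Counts were fitted with edgeR 4.0.16 (quasi-likelihood, TMM, R 4.3.3) over all 18 libraries and 21772 genes with at least 10 counts in total, and FDRs were adjusted by Benjamini-Hochberg over all of them. Calls required an FDR below 0.05 and a fold change above 1.3. Standard errors were derived from the estimate and its F statistic. In simulated counts of PA against BSA in siNTC (21321 genes), 187 of 200 genes with a true log2 change of 1 were called, with 7 false calls. The changed genes were drawn from well-counted genes, and the simulated spread was set by the mean count alone. These rates therefore do not cover members with few counts in BSA. The methods state DESeq2, and DESeq2 1.42.0 was run as an alternative. Single ratios were tested by exact permutation, and the exact intervals of summed counts were computed with scipy 1.17.1. Depth ran from 13041979 to 28496727 counts, so members with under 10 counts in a BSA library are imprecise. Intervals cover counting error only.

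The members and lists were chosen with earlier results of these data known. Named genes are the members, the silenced genes, 3 tested neighbours on each side of each locus, 3 genes most correlated with each member, and list members. Symbols came from GENCODE M39. The summed fit of Ifit3 and Ifit3b was added after seeing the data. An item withheld from the text is not reported here.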

Additional observations from a re-analysis of the deposited data

Results flagged for a closer look

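The PA response of Ifit1 with siErk3 differed from that with siNTC by an interaction of -1.704 on the log2 scale (SE 0.31). Its level in BSA was 2.21 ± 0.350 CPM with siNTC and 8.59 ± 4.34 with siErk3, and in PA 235 ± 17.2 and 273 ± 16.0 (SD, n = 3 each). Over all fits the estimate ran from -2.03 to -1.26.

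The PA response of Ifit2 with siMk5 differed from that with siNTC by an interaction of -0.5882 on the log2 scale (SE 0.11). Its level in BSA was 18.6 ± 0.967 CPM with siNTC and 18.4 ± 0.845 with siMk5, and in PA 73.8 ± 4.86 and 48.9 ± 5.52 (SD, n = 3 each). Over all fits the estimate ran from -0.686 to -0.534.

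Both estimates passed the threshold for a difference between groups. They are built from silencing differences that were known when the members were chosen. Passing it is therefore not independent evidence, and the estimates are a description without p-values.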

How the results depend on the processing

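All 6 members kept their call in PA against BSA under siNTC, siErk3 and siMk5 in each of the 14 alternatives run for each of these comparisons, which were DESeq2, its size factors in edgeR, no filter, filterByExpr, the FDR alone, only the groups compared, the replicate block, Ifit3 and Ifit3b summed, and leaving out each library of the groups compared. The number of members called with siErk3 in BSA stayed at 5 in 14 alternatives, and with siMk5 in BSA at 0. In PA it ran from 2 to 3 with siErk3 and from 4 to 6 with siMk5. The interaction of siErk3 with PA depended most on the processing. It was called for 1 member, for 0 with filterByExpr, for 4 without a filter, for 2 with the replicate block, for 3 with Ifit3 and Ifit3b summed (a fit in which these are 1 gene, so Ifit1 and the sum), and for 0 to 3 when a library was left out. The interaction of siMk5 with PA was called for 1 member, for 2 without a filter, and for 1 in each fit without a library. In all these cases the cause was not tested. The number of pair ratios passing was 9, 10 with a pseudocount of 2, 7 with the replicate block, and 7 to 10 when a library was left out.

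On average, libraries of the same replicate number did not deviate together. Over 45 such pairs of libraries the correlation of deviations ran from -0.609 to 0.521 with a mean of -0.00455, and 9 exceeded 0.1. The samples were therefore not treated as paired, though a mean near 0 cannot settle this. Replicates 1 and 3 of siErk3 PA and siMk5 PA deviated together (0.521 and 0.438), and opposite to those of siNTC PA (-0.609 to -0.414). The block changed no other count of members called. Depth limits Rsad2, Cmpk2 and Ifit3b in BSA, with 1 to 16 counts in each library of siNTC and siMk5.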

Other observations

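Of 10 genes whose products work with those of the members, 3 rose with PA in siNTC and none fell, where 15.5% of all genes rose. Cmtr2, which methylates the second cap nucleotide, rose by 1.01 on the log2 scale (SE 0.10, edgeR FDR = 9.46e-10), the translation initiation factor gene Eif3c by 0.67 (SE 0.04, edgeR FDR = 5.47e-14) and the cap methyltransferase gene Rnmt by 0.42 (SE 0.07, edgeR FDR = 6.04e-06). Cmpk1, the cytosolic relative of Cmpk2, measured 67.5 ± 5.74 CPM in siNTC BSA and 63.8 ± 2.17 in siNTC PA (SD, n = 3 each) and did not pass. The same 3 genes also passed under siErk3 and siMk5.

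Of 24 other interferon-stimulated effectors with a window in the RefSeq table, 8 held the ISRE core between 250 and 31 bases before a start, or 33.3%, against 3.07% of 27025 genes.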
